A study of Mus musculus with 10 samples.

Results

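The genes described here encode the machinery that brings new proteins into the endoplasmic reticulum (ER), trims and glycosylates them there, and packs them into transport vesicles. They were taken by name from a list of 44 genes, and all 44 have a row in the deposited count table of 35976 genes. The list spans 9 complexes and was divided by where each product sits: 25 genes encode subunits that span or are inserted in the membrane, and 19 encode subunits that work from the cytosol. The first class holds the Sec61 translocon with Sec62 and Sec63, the beta subunit of the receptor for the signal recognition particle (SRP), the translocon-associated protein (TRAP) complex, signal peptidase, oligosaccharyltransferase (OST) and the p24 cargo receptors. The second class holds the SRP proteins and the COPI and COPII vesicle coats.

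A protein destined for secretion or for a membrane carries a hydrophobic signal that the SRP recognises on the ribosome. The SRP hands the ribosome to its receptor, and the chain passes through the Sec61 channel while signal peptidase removes the signal and OST attaches a glycan built on a lipid carrier. COPII coats then bud vesicles from the ER, COPI coats return material from the Golgi, and p24 proteins cycle between these compartments as cargo receptors. In the early embryo this pathway serves every cell, since adhesion molecules, growth factors and their receptors all pass through it.

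The study compared mouse morulae, the compacting embryos before the blastocyst, with and without Jarid2, a subunit of the Polycomb repressive complex PRC2. All embryos were labelled BDF1 x PWK, and polyadenylated RNA was amplified with a SMART-Seq chemistry before sequencing. The first set was single female embryos: 3 wild-type libraries (replicates 1, 2 and 3) and 3 Jarid2 knockout libraries (replicates 1, 3 and 4). The second set was pools of about 20 embryos, with 2 libraries labelled control and 2 labelled Jarid2 knockout. The sex of the pooled embryos, the age and rearing of the parents, the deleted exons and whether the pooled controls are wild type could not be read from the labels. Each single-embryo library is 1 animal, while a pool averages its embryos, and the labels do not say whether embryos of 1 library shared a litter with another.

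The single-embryo libraries held 14830332 to 18696312 counts, and the pools 41003216 to 49861963. Jarid2 stood at 580, 686 and 776 CPM (counts scaled to each library's total) in the wild-type single embryos and at 156, 319 and 61.3 in the knockouts. The pools had 442 and 496 CPM in controls and 181 and 158 in knockouts. Its log2 change was -1.92 ± 0.43 (standard error, SE; edgeR adjusted p = 0.0342) in single embryos and -1.55 ± 0.18 (adjusted p = 0.0794) in pools. All 10 morula markers were detected in every library, with a summed level of 3608 to 4409 CPM, much of it Dppa3. In single embryos 1 of these 10, Cdh1, which encodes the adhesion protein E-cadherin, passed the test. It had 812, 405 and 608 CPM in wild type and 124, 248 and 109 in knockouts (-1.91 ± 0.32, adjusted p = 0.0180). In the pools Cdh1 had 138 and 190 CPM in controls and 133 and 264 in knockouts, which overlap. It was thus lower in the same libraries as the membrane genes below, and its part in their result was not tested. The 8 markers of cumulus and granulosa cells summed to 0.0932 to 0.877 CPM, and 5 to 7 of them were at 0 in each library. The 7 oocyte markers summed to 47.6 to 164 CPM in wild-type and 36.7 to 98.0 CPM in knockout single embryos, so these ranges overlapped. In such bulk libraries, fewer cells of a type and less RNA per cell cannot be told apart.

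Membrane genes fell in single knockout embryos, and no cytosolic gene did. edgeR's quasi-likelihood test at an adjusted p of 0.05 called 13 of the 25 membrane genes lower and 0 higher. It called 0 of the 19 cytosolic genes lower and 1, Sec13, higher. Over all 13830 genes tested, the same rule called 3.21% lower and 1.16% higher (4.37% in either direction). All 25 membrane genes had a log2 value below 0, with a median of -0.97 and a range of -1.34 to -0.20. Of the cytosolic genes, 14 lay above 0, with a median of 0.23 and a range of -0.60 to 0.90. Among all genes tested, 51.7% lay below 0 and 48.3% above, with a median of -0.03. The CPM ranges of the genotypes did not overlap, with knockouts lower, for 23 of the 25 membrane genes, against 15.3% of all genes; Sec61b and Sec61g were the exceptions. They did not overlap with knockouts higher for 4 cytosolic genes (Copb1, Copb2, Cope and Sec13), against 12.6% of all genes. At an unadjusted p under 0.05, 22 membrane genes were lower and 4 cytosolic genes were higher, against 22.6% of all genes in either direction.

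These calls rested on few libraries. Without wild-type replicate 3 or knockout replicate 4 no gene of the 44 was called, and 1 gene overall in each fit. Without wild-type replicate 1 there were 2 of the 44, against 0.278% of all genes tested. Without knockout replicate 1 there were 3, against 0.45%. Leaving out wild-type replicate 2 gave 11, against 3.54%, and leaving out knockout replicate 3 gave 14, against 9.05%. All 25 membrane genes stayed below 0 whichever 1 single-embryo library was left out, with medians between -1.01 and -0.84.

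**Figure D1:**
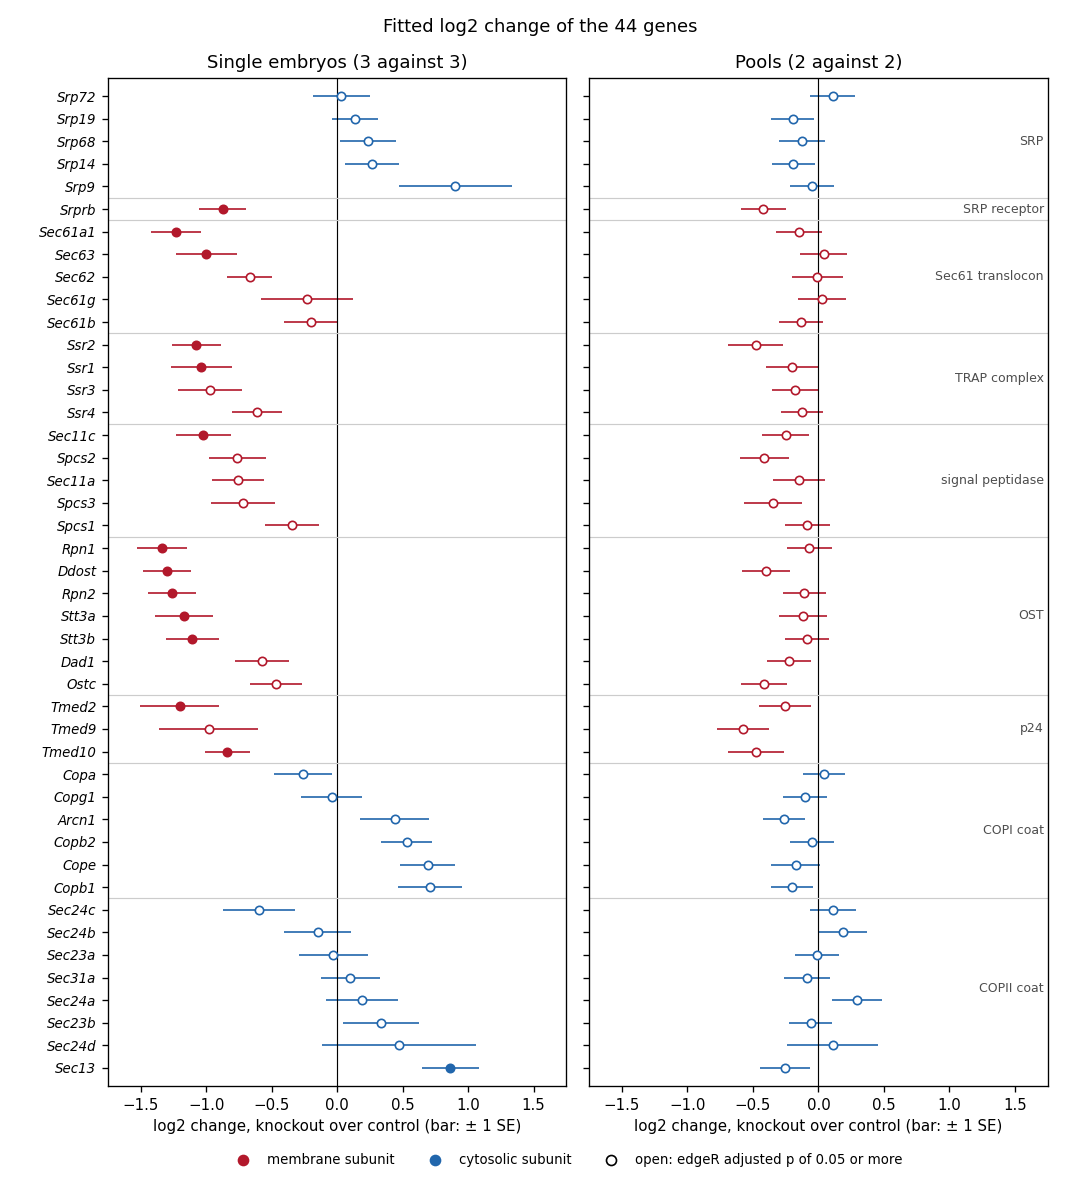
Fitted log2 change (knockout over control, x axis) of each of the 44 genes (y axis, grouped by complex) in single embryos and in pools, with bars of 1 SE; filled points had an edgeR adjusted p under 0.05. In single embryos every red (membrane) point lies left of 0 and 13 are filled, whereas in the pools no point is filled.

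The sums over each class showed which libraries set this contrast. The 25 membrane genes together held 10404, 9334 and 9817 CPM in the wild-type single embryos and 5045, 4931 and 5608 CPM in the knockouts, so the knockout mean was 52.7% of the wild-type mean. By this sum the 4 pools lay between these groups: 5796 and 7649 CPM in controls, 5951 and 6051 CPM in knockouts. Of the 25 membrane genes, 14 were higher in all 3 wild-type single embryos than in any pool, and 9 were lower in all 3 knockout single embryos than in any pool. Single genes did not all follow the sum. Sec61a1 was higher in all 3 knockout single embryos than in any pool, and Sec61g was lower in all 3 wild-type single embryos. The 19 cytosolic genes summed to 2075, 2452 and 2294 CPM in wild-type single embryos and to 2338, 2837 and 3124 CPM in knockouts, and these ranges overlapped. The pools held 2726 and 2736 CPM of cytosolic transcripts in controls and 2633 and 2662 CPM in knockouts. Of the 19 cytosolic genes, 2 were higher and 5 lower in all 3 wild-type single embryos than in any pool. For the 3 knockout single embryos these counts were 3 and 0. The share of all genes that separate from the pools in this way was not computed. These counts therefore cannot be read as a trait of either class. Over all genes, wild-type single embryos also correlated less with the pools (Pearson's r of log2 values 0.955 to 0.975) than knockout single embryos did (0.975 to 0.983). The sets differ in embryo number and depth, and the sex of the pools is unknown, so their levels are given side by side without a test.

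**Figure D2:**
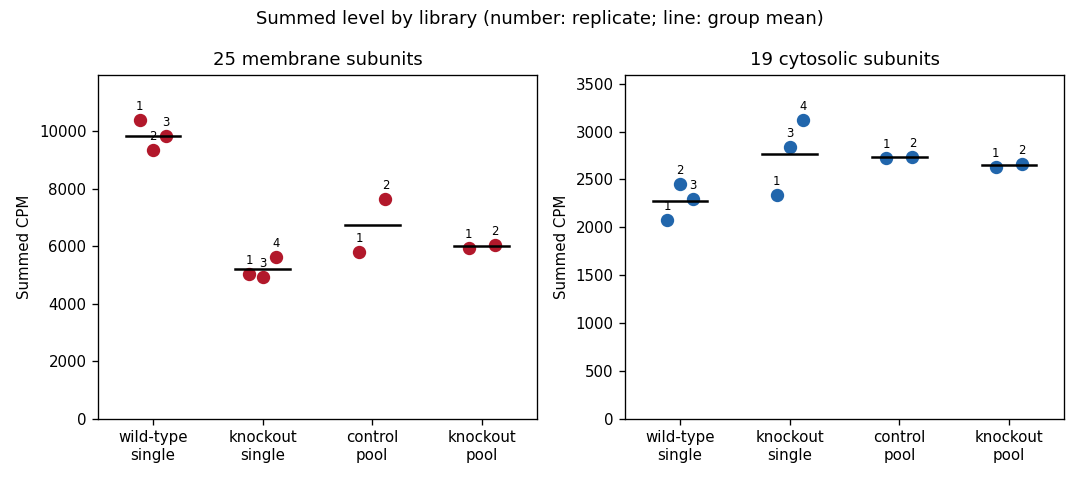
Summed CPM (y axis, from 0) of the 25 membrane and 19 cytosolic genes in each library (points, numbered by replicate) with the group mean (line). The 3 wild-type single embryos lie above all other libraries for the membrane genes, from 9334 to 10404 CPM, and no such gap is seen for the cytosolic genes.

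Promoter sequence was printed for the 3 membrane and the 3 cytosolic genes with the smallest p in single embryos. The 3 membrane genes fell; of the cytosolic genes Sec13 rose, while Cope and Copb1 had values above 0 that did not pass the test. Each run is the 150 bases before the RefSeq start site (GRCm38.p6), 5′ to 3′ on the strand of the gene. Capitals mark CCAAT on either strand (ATTGG on the other), the box bound by NF-Y, and TGACGTGG on either strand, the core of an element bound by factors of the unfolded protein response.
Rpn1 (chr6:88084323-88084472, plus strand): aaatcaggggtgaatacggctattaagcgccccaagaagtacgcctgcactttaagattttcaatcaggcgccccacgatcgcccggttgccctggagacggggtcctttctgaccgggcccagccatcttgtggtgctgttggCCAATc
Ddost (chr4:138304588-138304737, plus strand): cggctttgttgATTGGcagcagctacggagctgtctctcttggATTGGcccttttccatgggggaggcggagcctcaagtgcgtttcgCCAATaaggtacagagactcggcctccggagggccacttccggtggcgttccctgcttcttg
Rpn2 (chr2:157278948-157279097, plus strand): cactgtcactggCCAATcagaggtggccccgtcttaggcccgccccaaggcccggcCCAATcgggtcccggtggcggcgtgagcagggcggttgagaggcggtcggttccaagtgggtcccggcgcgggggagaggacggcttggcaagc
Sec13 (chr6:113740682-113740831, minus strand): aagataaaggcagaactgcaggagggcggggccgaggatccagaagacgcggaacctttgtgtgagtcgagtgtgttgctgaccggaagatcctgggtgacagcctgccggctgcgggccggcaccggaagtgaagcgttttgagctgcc
Cope (chr8:70302617-70302766, plus strand): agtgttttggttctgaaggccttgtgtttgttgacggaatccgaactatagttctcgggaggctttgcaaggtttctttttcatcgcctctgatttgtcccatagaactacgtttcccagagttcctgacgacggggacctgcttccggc
Copb1 (chr7:114254681-114254830, minus strand): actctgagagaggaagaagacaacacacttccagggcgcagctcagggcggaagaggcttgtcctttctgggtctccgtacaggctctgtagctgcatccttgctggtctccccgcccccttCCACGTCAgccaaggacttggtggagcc

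In these stretches CCAAT occurred in Rpn1, Ddost and Rpn2 and in none of the 3 cytosolic genes, and TGACGTGG occurred in Copb1, 28 to 21 bases before the start. Over windows from 250 bases before to 50 after the start, 35 of the 44 genes were matched. CCAAT was found in 12 of the 20 promoters (60.0%) of 19 membrane genes and in 5 of the 18 promoters (27.8%) of 16 cytosolic genes, against 37.4% of all 32851 promoters. The opposite held for TGACGTGG, with 0 membrane promoters and 4 cytosolic ones (Copb1, Copb2, Sec23a and Sec24d), against 0.676% of all promoters. The full ER stress elements, ERSE (CCAAT, a gap of 9 bases and CCACG) and ERSE-II (ATTGG, 1 base and CCACG), each hold a CCAAT box. Searched on both strands, they were in none of these promoters and in 0.119% and 0.0365% of all. These matches describe letters in a window and were not tested against the expression values.

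The 5 SRP proteins, which act in the cytosol, did not pass the test, and all 5 had values above 0 with a median of 0.23. Srp9, which forms with Srp14 the part of the particle that slows translation, had the largest value of the complex (chr1:182124737-182132415). It stood at 43.7, 138 and 61.3 CPM in wild-type embryos and at 69.9, 191 and 183 in knockouts. The groups overlapped, and the log2 value was 0.90 ± 0.43 (adjusted p = 0.243). Its partner Srp14 had a value of 0.27 ± 0.21, and the other 3 proteins, Srp19, Srp68 and Srp72, lay between 0.03 and 0.23. Srp9 overlaps the tested gene Gm33725, and reads of the pair cannot be told apart because strand was not recorded by this chemistry.

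The subunit that anchors the SRP receptor in the ER membrane fell. Srprb had 414, 476 and 500 CPM in wild-type embryos and 263, 252 and 219 in knockouts, without overlap. The change was -0.88 ± 0.18 (adjusted p = 0.0275).

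In the translocon, the channel-forming subunit fell and the small subunits did not pass the test. Sec61a1 (chr6:88503607-88518800), the pore itself, had 398, 316 and 291 CPM in wild-type embryos and 124, 146 and 145 in knockouts. Every knockout embryo was below every wild-type embryo, and the change was -1.23 ± 0.19 (adjusted p = 0.0136). Sec63, which recruits the lumenal chaperone BiP to the channel, fell from 169, 117 and 114 to 52.7, 73.4 and 68.9 CPM. That was a change of -0.999 ± 0.23 (adjusted p = 0.0389), again without overlap. Its partner Sec62 missed the threshold, with -0.67 ± 0.17 (adjusted p = 0.0546) and groups that did not overlap. Sec61b, a small tail-anchored subunit, stood at 144, 107 and 132 CPM in wild-type and 99.7, 117 and 107 in knockout embryos, which overlap. Sec61b and Sec61g had values of -0.20 ± 0.21 and -0.23 ± 0.35, the 2 nearest to 0 among the membrane genes. Sec61g also had separate levels in the sets, at 10.8 to 17.0 CPM in the 6 single embryos and 33.8 to 44.4 CPM in the 4 pools.

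All 4 TRAP subunits, which sit beside the channel and assist some signals, were lower in every knockout embryo than in any wild-type embryo. Ssr2 and Ssr1 passed the test. Ssr2 (chr3:88579608-88588420) had 913, 885 and 874 CPM in wild-type embryos and 342, 384 and 501 in knockouts, a change of -1.08 ± 0.19 (adjusted p = 0.0181). Ssr1 had 493, 317 and 453 CPM against 148, 208 and 243, a change of -1.04 ± 0.24 (adjusted p = 0.0359). Ssr3 lay just outside the threshold, at -0.97 ± 0.24 (adjusted p = 0.0503), and Ssr4 had -0.61 ± 0.19 (adjusted p = 0.0912).

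Signal peptidase cleaves the signal inside the ER, with Sec11a and Sec11c as alternative catalytic subunits. Sec11c had 191, 163 and 230 CPM in wild-type embryos and 87.4, 101 and 91.7 in knockouts. It was the one called subunit, at -1.02 ± 0.21 (adjusted p = 0.0269). Sec11a had -0.75 ± 0.20 (adjusted p = 0.0578), and the accessory subunits Spcs2, Spcs3 and Spcs1 had -0.76, -0.72 and -0.34. None of the 5 genes overlapped between genotypes. Spcs1 and Spcs2 overlap other tested genes, Glt8d1 and Xrra1, so part of their reads may belong to those.

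OST transfers the glycan to the growing chain and was the complex with the most calls. Of its 7 listed subunits 5 fell, with a median of -1.17, and the groups did not overlap for any of the 7. Rpn1 (chr6:88084473-88105304), a large scaffold subunit, had 524, 476 and 493 CPM in wild-type embryos and 153, 194 and 226 in knockouts. Its change of -1.34 ± 0.19 (adjusted p = 0.0120) was the largest in size of the 44 genes. Ddost (chr4:138304738-138312619) fell from 547, 606 and 546 to 215, 196 and 254 CPM, a change of -1.30 ± 0.19 (adjusted p = 0.0120). Rpn2 (chr2:157279098-157326318), whose locus overlaps Mroh8, fell from 533, 498 and 437 to 158, 217 and 220 CPM, a change of -1.26 ± 0.18 (adjusted p = 0.0120).

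The 2 catalytic subunits of OST define 2 forms of the enzyme, and both fell. Stt3a, whose enzyme works beside the translocon, had 440, 592 and 402 CPM in wild-type embryos and 206, 169 and 235 in knockouts. The change was -1.17 ± 0.22 (adjusted p = 0.0210). Stt3b, whose enzyme acts on sites that were skipped, had 369, 314 and 299 CPM against 132, 195 and 120, a change of -1.11 ± 0.20 (adjusted p = 0.0204). The log2 ratio of Stt3a to Stt3b was 0.25 to 0.91 in wild-type and -0.20 to 0.97 in knockout embryos, so the balance of the forms overlapped between genotypes. The small subunits Dad1 and Ostc had the values nearest to 0 among the 7 listed, -0.58 ± 0.21 (adjusted p = 0.130) and -0.47 ± 0.20 (adjusted p = 0.188).

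**Figure D3:**
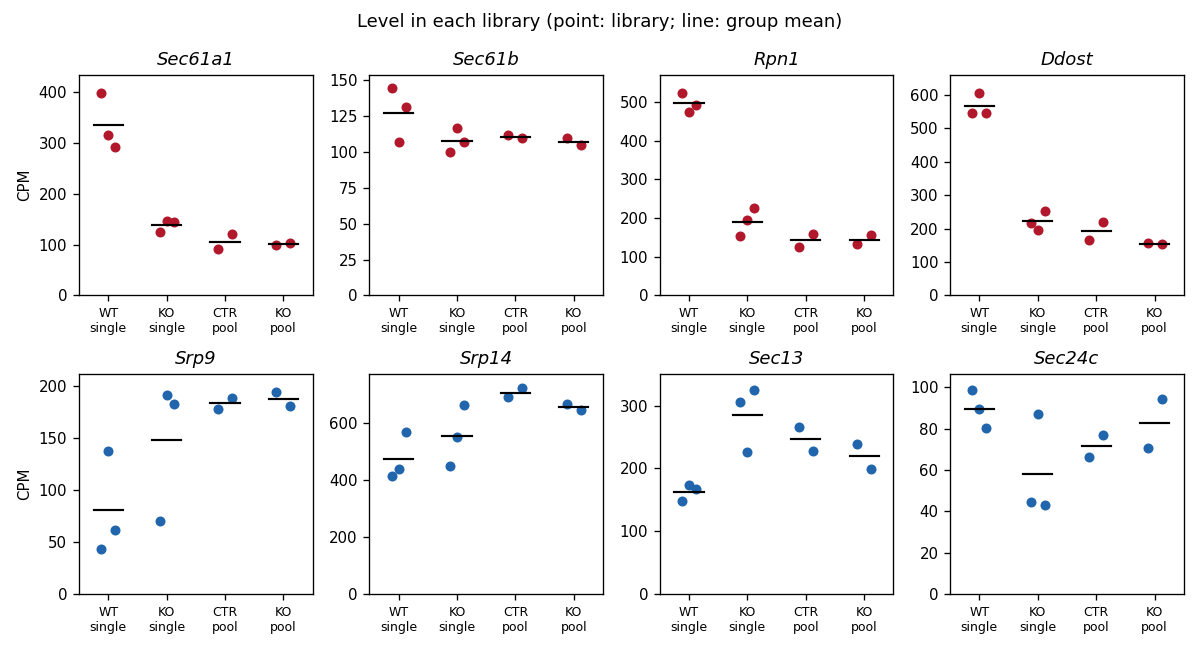
CPM (y axis, from 0) of 4 membrane genes (red) and 4 cytosolic genes (blue) in each library (points), with the group mean (line); WT, wild type; KO, knockout; CTR, control. Sec61a1, Rpn1 and Ddost are highest in the 3 wild-type single embryos, Sec61b is nearly level, and Sec13 is lowest in the wild-type single embryos. In the pools none of the 8 genes passed the test, with Ddost and Srp14 lower in both knockout pools than in either control.

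The p24 receptors Tmed2 and Tmed10 were called lower. Tmed2 (chr5:124540791-124550503) had 66.7, 44.2 and 55.6 CPM in wild-type embryos and 18.4, 21.4 and 30.4 in knockouts, a change of -1.20 ± 0.30 (adjusted p = 0.0493). Tmed10 had 430, 454 and 454 CPM against 224, 234 and 267, a change of -0.84 ± 0.17 (adjusted p = 0.0272). Tmed9 varied more, with 191, 106 and 118 CPM against 105, 41.9 and 52.3, and did not pass at -0.98 ± 0.38 (adjusted p = 0.155). Its highest knockout embryo lay just under its lowest wild-type embryo.

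The COPI coat binds the tails of the p24 receptors from the cytosol. Of its 6 subunits, 0 passed the test, 4 lay above 0 and the median was 0.49. Copb1 (chr7:114215559-114254680), the beta subunit, stood at 85.8, 130 and 110 CPM in wild-type embryos and 152, 144 and 217 in knockouts. The groups did not overlap, and the value was 0.71 ± 0.25 (adjusted p = 0.117). Cope and Copb2 also did not overlap, at 0.69 ± 0.21 (adjusted p = 0.0829) and 0.53 ± 0.19 (adjusted p = 0.136). Arcn1 had 0.44, Copg1 -0.04 and Copa, which overlaps the tested gene Ncstn, -0.26.

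Of the 8 COPII genes, Sec13 rose and the other 7 did not pass. Sec13 (chr6:113728052-113740681), a subunit of the outer cage and also a nuclear pore protein, had 148, 174 and 168 CPM in wild-type embryos and 306, 226 and 325 in knockouts. The change was 0.86 ± 0.22 (adjusted p = 0.0494), near the threshold, and the groups did not overlap. Its cage partner Sec31a had 0.10 ± 0.22. The inner coat genes Sec23a and Sec23b had -0.03 and 0.33, and Sec23b overlaps the tested gene Gm34292. The 4 cargo-binding Sec24 genes had no common direction: Sec24c -0.60 ± 0.28, Sec24b -0.15, Sec24a 0.19 and Sec24d 0.47 ± 0.59. Sec24d rested on few reads, at 3.28 to 20.1 CPM over the 10 libraries.

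The ratio of Sec24c to Sec24a was lower in the knockouts of both sets. The log2 ratio of Sec24c to Sec24a CPM was 1.48, 1.43 and 1.58 in the wild-type single embryos and 0.64, 0.95 and 0.40 in the knockouts, without overlap. In the pools it was 1.57 and 1.54 in controls and 1.33 and 1.41 in knockouts, also lower in the knockouts and without overlap. The log2 ratio of Sec24b to Sec24a was 0.26 to 0.56 in wild-type and -0.09 to 0.25 in knockout single embryos. In the pools that ratio overlapped between genotypes. The pair of Sec24c and Sec24a was singled out after its values were seen, and neither ratio was tested.

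Set per kilobase of transcript, the subunits of 1 complex stood at quite different levels. Each length is that of 1 annotated transcript per gene, chosen without data on which form is expressed, and the levels depend on that choice. Sec61g, of 68 residues, was given 1862 bases, and Sec61b, of 96 residues, 564 bases. In wild-type single embryos the translocon genes ran from 226 CPM per kilobase for Sec61b and 106 for Sec61a1 to 8.23 for Sec61g. The knockout embryos had 191, 43.6 and 6.85 in the same order. Among the OST genes of the 44, Ostc stood highest, at 451 CPM per kilobase in wild-type and 315 in knockout embryos. Stt3b had 77.5 in wild type, the lowest of these, and 35.2 in knockouts.

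In the pools, edgeR called 0 of the 44 genes, as it did for 0% of the 16259 genes tested; 5 of the 44 had an unadjusted p under 0.05, all lower membrane genes, against 6.6% of all genes in either direction. DESeq2 also called 0 of the 44, and 66 genes overall. Of the 25 membrane genes, 23 lay below 0, against 48.7% of all genes, with a median of -0.18. The genotypes did not overlap with knockouts lower for 6 of them and for 4 of the 19 cytosolic genes, against 11.1% of all genes. With knockouts higher, 0 membrane and 4 cytosolic genes did not overlap, against 24.3% of all genes. The cytosolic median was -0.06, with 6 of 19 above 0, and the median of all genes was 0.01. The membrane value rested largely on control pool 2: without it the membrane median was -0.05 with 14 of 25 below 0, and without control pool 1 it was -0.36.

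The 3 members with the smallest p in the pools were Tmed9, Srprb and Ostc. Tmed9 had 56.7 and 81.3 CPM in control pools and 49.5 and 48.6 in knockouts, a log2 value of -0.57 ± 0.20 (adjusted p = 0.650). Srprb had 209 and 263 CPM against 186 and 188, a value of -0.42 ± 0.17 (adjusted p = 0.712). Ostc had 475 and 572 CPM against 440 and 390, a value of -0.42 ± 0.18 (adjusted p = 0.734). For these 3 the knockout pools lay below both controls. The 3 OST genes with the largest falls in single embryos did not share a pattern in the pools. Ddost had 165 and 220 CPM in controls and 155 and 153 in knockouts, without overlap (-0.40 ± 0.18, adjusted p = 0.753). Rpn1 had 127 and 159 CPM against 133 and 157, which overlap (-0.07 ± 0.17), and Rpn2 had 145 and 160 against 136 and 166, which also overlap (-0.11 ± 0.17).

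The difference between the sets was tested as an interaction over all 10 libraries, as the single-embryo change minus the pool change. It called 0 of the 44 genes and 0.0063% of the 15878 genes tested. At an unadjusted p under 0.05 there were 16 of the 44, 12 membrane genes lower and 4 cytosolic genes higher, against 14.6% of all genes in either direction. All 25 membrane genes lay below 0, against 52.1% of all genes, with a median of -0.59. The cytosolic median was 0.39, with 14 of 19 above 0, against 47.9% of all genes. Rpn1 had the smallest p, with a difference of -1.25 ± 0.27 (edgeR adjusted p = 0.235). DESeq2 called 3 genes in this test, Rpn1, Rpn2 and Sec61a1, with adjusted p of 0.0133, 0.0139 and 0.0385. Fitting every gene with at least 1 count also called 3: Rpn1 and Rpn2 lower (adjusted p = 0.0197 and 0.0460) and Sec13 higher (adjusted p = 0.0241).

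A further 83 genes of the same pathway were divided by location in the same way. These comprise further genes of the SRP and its receptor, TRAP, OST, the p24 receptors and the coats. The rest are translocation helpers, tail-anchor insertion factors, the ER membrane complex, enzymes that build the lipid-linked glycan, other cargo receptors and ER-Golgi SNAREs. Of the 59 membrane genes among them, 10 fell and 0 rose, against 3.21% and 1.16% of all genes tested, 51 lay below 0, against 51.7%, and the median was -0.73. Of the 23 cytosolic genes tested, 0 fell and 1 rose, 19 lay above 0, against 48.3% of all genes, and the median was 0.41. The pools gave 0 calls among the 83.

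The 8 called genes with the smallest p were Magt1, Surf4, Lman2, Kdelr2, Lman1, Tram1, Mia3 and Tmed7, all lower. Magt1, a redox subunit of the Stt3b form of OST, fell from 392, 298 and 277 to 131, 124 and 116 CPM (-1.34 ± 0.20, adjusted p = 0.0125). It was the 1 gene called among 5 further OST genes. Krtcap2 (-0.64) and Tmem258 (-0.49) did not pass, though their genotypes did not overlap. Tusc3 (-0.20 ± 0.44) and Ost4 (0.15 ± 0.23) did not pass, and their genotypes overlapped. Lman1, a lectin that exports glycoproteins from the ER, fell from 207, 142 and 172 to 60.8, 86.7 and 72.7 CPM (-1.21 ± 0.22, adjusted p = 0.0197). Kdelr2, a receptor that returns ER residents, fell from 352, 242 and 281 to 124, 113 and 121 CPM (-1.24 ± 0.21, adjusted p = 0.0180). Surf4 and Lman2 had -1.10 and -1.06, Tram1 -1.17, Mia3 -1.21 and Tmed7 -1.07, and in all 8 genes the genotypes did not overlap. The other 2 called lower were Sec61a2, a second channel gene, and Alg6, which adds a glucose to the lipid-linked glycan (-1.81 ± 0.40).

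Of the 20 genes that build this glycan, 1 passed, a share near the 4.37% of all genes. Of the same 20, 19 lay below 0, against 51.7% of all genes, with a median of -0.78. All 12 other cargo receptors lay below 0, and 5 of them fell, against 3.21% of all genes. Srpr, the SRP receptor subunit that binds the membrane through Srprb, was the one called higher: 149, 193 and 165 CPM in wild-type and 292, 291 and 279 in knockout embryos (0.81 ± 0.18, adjusted p = 0.0351). The receptor's 2 subunits passed in opposite directions, Srprb lower and Srpr higher. The 5 ER-Golgi SNAREs, which are membrane proteins anchored by their last residues, had 0 calls, 4 values above 0 and a median of 0.37. Sec22b had the highest of them, 0.74 ± 0.22 (adjusted p = 0.0793).

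The proteins were then compared by length and by hydrophobic segments, a comparison chosen after the values were seen. A scan of the annotated coding sequences for a hydrophobic window of 19 residues found a segment in all 25 membrane proteins and in 3 of the 19 cytosolic ones (Copb1, Sec24a and Sec24d). It missed the signal peptides of some proteins, such as Tmed9 and Rpn2. Sec61b and Sec61g, at 96 and 68 residues, had a segment that ended 3 and 1 residues from the end of the protein. A single segment within 40 residues of the end was found in 4 of the 25, the others being Spcs1 (-0.34) and Tmed9 (-0.98). Of the 59 further membrane genes 13 had such a segment, with log2 values from -1.21 (Lman1) to 0.74 (Sec22b). The 5 membrane proteins under 150 residues had 0 calls and a median log2 change of -0.34 in single embryos. The 13 of 150 to 400 residues had 6 lower and a median of -0.88, and the 7 over 400 residues were all called lower, with a median of -1.23.

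Across the 25 membrane genes, Spearman's rho between protein length and log2 change was -0.79 in single embryos and 0.17 in pools. Over the 59 further membrane genes it was -0.55 and -0.03. Across the 19 cytosolic genes it was -0.55 and 0.62. With transcript length rho was -0.43 in single embryos and 0.29 in pools for the 25 membrane genes, and -0.65 and 0.66 for the 19 cytosolic genes. For the cytosolic genes both were larger in size than with protein length. With mean CPM it was 0.21 and -0.22 for the membrane genes and 0.46 and -0.71 for the cytosolic genes. These values are descriptions across genes that share the same libraries and are not independent. With the number of residues that follow the first segment, rho of the change was -0.65 over the same 25 genes. The share of transcript length or coverage in this relation was not tested.

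**Figure D4:**
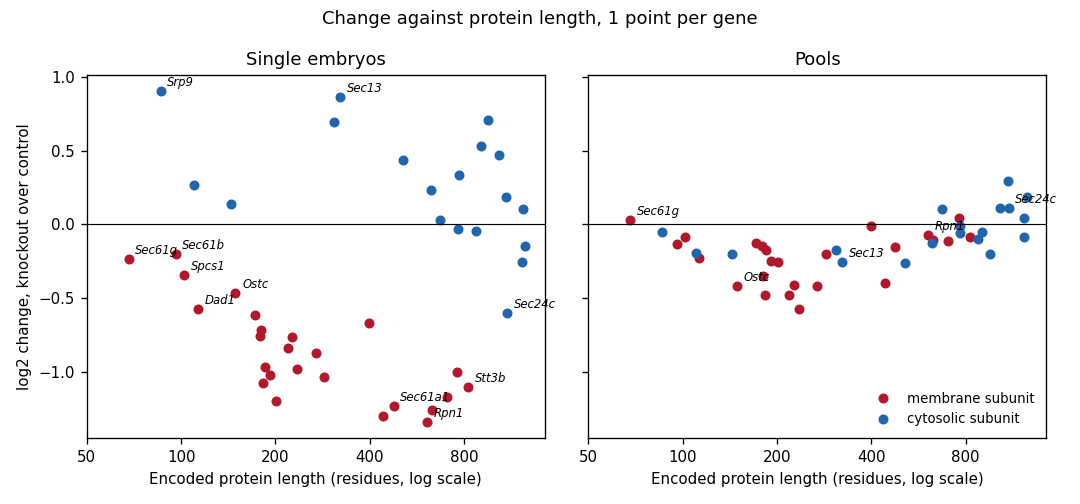
Log2 change (knockout over control, y axis) against encoded protein length (residues, log x axis) for the 25 membrane (red) and 19 cytosolic (blue) genes in single embryos and in pools, 1 point per gene. In single embryos the red points descend from -0.20 for Sec61b to -1.34 for Rpn1, and in the pools they show no such slope (rho 0.17).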

How the data were processed

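The 10 libraries, 6 of single female morulae and 4 of pools, were made from polyadenylated RNA. The deposited table holds whole-number read counts per gene, without normalization. The submitters' processing notes name the assembly mm10 and the tools RSEM 1.3.1, STAR 2.7.6a and fastp 0.21.0. Which of these made the counts is not stated, nor are the annotation, the strand setting or the treatment of reads with several matches. The members and lists were chosen with earlier results of these data known. Each set was fitted alone with edgeR 4.0.16 (R 4.3.3; filterByExpr, TMM, quasi-likelihood F test) on the counts, with Benjamini-Hochberg adjustment over all genes tested at 0.05. SE is the log2 change divided by the square root of F. The difference between sets was an interaction over 10 libraries. All 44 genes passed the filter in both sets. CPM are counts over library totals. Replicates are labelled as separate samples; p-values measure the spread between these libraries. No libraries were duplicates by a chi-square of counts. Alternatives used DESeq2 1.42.0, limma-voom 3.58.1, other scalings and filters, a replicate block and leaving out each library. Values per library are given for genes past 5%, the largest value of each complex and the 3 smallest p in pools, plus genes set beside them. Scripts were tested on simulated data. Protein and transcript lengths come from 1 GENCODE vM21 transcript per gene, which may not be the form expressed. Promoters and positions come from RefSeq GRCm38.p6.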

Additional observations from a re-analysis of the deposited data

How the results depend on the processing

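In single embryos 14 of the 44 genes were called in the reported fit. Counts within 1.5 times of this came from DESeq2 size factors and upper-quartile scaling (13 each), limma-voom (18), no scaling (19), DESeq2 (20) and a mean of at least 10 CPM (20). Testing every gene with at least 1 count gave 22, and fitting all 10 libraries together gave 22. Leaving out 1 library gave 0 to 14. The replicate number as a block gave 1, Rpn1 (adjusted p = 0.0329). Wild-type replicate 2 and knockout replicate 4 have no partner of the same number, so this blocked contrast rested on replicates 1 and 3. The replicate numbers are not stated to pair samples, and same-numbered single embryos did not deviate together (r = -0.01 and -0.08). With 2 pools per group, deviations from the group mean are equal and opposite. Same-numbered pools therefore all had r = 0.32 and the crossed pairs -0.32. That is 1 value with either sign, so it cannot show whether same-numbered pools deviated together. Blocked pools and the blocked difference gave 0. The cause of these changes was not tested.

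Over all genes, the 605 calls in single embryos became 1793 with DESeq2, 1715 without the filter, 1667 with all libraries, 1243 at 10 CPM, 187 with the block and 1 to 1316 when 1 library was left out. In pools 0 became 66 with DESeq2, 170 without the filter, 39 with the block, 1 with limma-voom and 25 to 379 without 1 library. The difference between sets called 3 members with DESeq2 and 3 without the filter, and 0 under the other settings.

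The membrane median in single embryos ran from -1.01 to -0.84 when 1 library was left out (-0.84 without knockout replicate 3). None of 375 refitted values of the 25 membrane genes changed sign, and 18 of 284 of the cytosolic genes did, all of genes that were not called. Copg1 became 0.0046 with DESeq2 size factors, 0.016 with upper quartile and 0.0046 with DESeq2. Sec23a became 0.020, 0.027 and 0.019 under the same 3, 0.26 with the block and 0.0024 with all libraries. With the block Srp72 became -0.079 and Sec23b -0.013. With 1 library left out, Copg1 ran from -0.13 to 0.12, Sec23a from -0.21 to 0.21, Sec23b from -0.057 to 0.52, Sec24d from -0.20 to 0.86 and Srp72 from -0.090 to 0.20. In pools without scaling, the cytosolic median was 0.03 against a median of all genes of 0.10. Sec24d, at 3.28 to 20.1 CPM, had an SE of 0.59; the part of depth in it was not tested.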
